A study of Mus musculus with 6 samples.

Results

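The genes described here are those of the proteasome. They are the genes whose symbol begins with Psma, Psmb, Psmc, Psmd, Psme or Psmf and a number, without the immunoproteasome subunits Psmb8, Psmb9 and Psmb10, and 42 of the 15302 genes listed met this rule. They comprise 7 genes of the alpha ring and 7 of the beta ring of the 20S core, 9 of the base and 8 of the lid of the 19S cap, 3 assembly chaperones of the cap, and 6 genes of other activators and of an inhibitor. The remaining members are Psmb11, the beta subunit of thymus epithelium, and Psmc3ip, whose product is a meiotic recombination factor and no proteasome subunit, so that it met the rule by its symbol alone. The 31 genes of both rings, the base and the lid are called the constitutive 26S subunits below. Psma8, the alpha subunit of the testis, was not analysed here.

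The 26S proteasome is the protease that degrades proteins tagged with ubiquitin. Its 20S core is a barrel of stacked rings, whose outer alpha rings gate the entry and whose inner beta rings carry the proteolytic sites. The 19S cap binds the ubiquitin chain, removes it, and unfolds the substrate with a ring of ATPases. The subunits of the core and cap are made in matched amounts, and their genes are known to be raised together by the transcription factor NRF1, the product of Nfe2l1, when proteasome activity falls short. In cultured mouse cells, mTORC1, the kinase complex that the TSC1 protein holds in check, has also been described as raising proteasome genes through NRF1.

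The levels were measured in total kidney RNA of 3 WT mice (C57BL/ 6, replicates 1 to 3) and 3 Tsc1-KO mice (Tsc1f/f/Aqp2 Cre, replicates 4 to 6), all 45 days old, with 1 library per mouse. In the Tsc1-KO mice the Aqp2 promoter drives Cre in principal cells of the collecting duct, so that other kidney cells keep Tsc1. Whether WT mice were littermates is not in the labels, so the deletion cannot be told apart from effects of the Cre line or strain. The question put to these genes was whether their transcripts differed in level between the genotypes.

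The libraries held 19568856 to 24647430 reads in listed genes. The levels are FPKM, fragment numbers scaled to the length of the transcript and the size of the library. In each list of values the libraries follow in the order of their replicate numbers, WT 1 to 3 and Tsc1-KO 4 to 6. Tsc1 itself averaged 8.29 ± 0.724 FPKM in the WT group and 7.85 ± 0.338 FPKM in the Tsc1-KO group (SD, n = 3 each). WT replicate 3 stood apart from its group. Pearson correlations were taken on the log2 scale over the 13230 genes tested. WT replicate 3 had 0.977 and 0.976 with WT replicates 1 and 2, against 0.992 between those libraries. With the Tsc1-KO libraries it had 0.974 to 0.981, where WT replicates 1 and 2 had 0.976 to 0.982. The summed level of 7 proximal tubule markers was 3191 to 3281 FPKM in WT libraries and 2657 to 3084 FPKM in Tsc1-KO libraries, without overlap, and limma called 0 of them. All 7 markers of A-intercalated cells (A-IC) tested rose in Tsc1-KO mice, and their summed level went from 133 to 169 FPKM in WT libraries to 290 to 377 FPKM in Tsc1-KO libraries. The authors had already reported these 7 genes as raised in Tsc1-KO kidneys, so their rise here is no independent check.

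No proteasome gene passed the test between Tsc1-KO and WT kidneys in either direction. The test was limma on log2(FPKM + 0.1), adjusted by Benjamini-Hochberg over the 13230 genes whose mean reached 0.5 FPKM, and it covered 40 of the 42 members. At an adjusted p under 0.05, limma called 0 members higher and 0 lower, whereas it called 279 genes, or 2.11% of all genes tested, 248 of them higher (1.87%) and 31 lower (0.234%). At an unadjusted p under 0.05 there were 2 members, Psme2 and Psme3, against 19.2% of all genes tested. A second test, limma-voom on whole reads recovered from the FPKM, also called 0 members, with 2 at an unadjusted p under 0.05. The smallest adjusted p among the members was 0.158 in limma, for Psme2. Since RNA of the whole kidney was measured, fewer cells of a type and less RNA per cell cannot be told apart.

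The log2 fold changes of the 40 members lay between -0.21 (Psmd9) and 0.20 (Psme2), with a median of -0.03 beside 0.04 over all genes tested. They were positive for 15 members and negative for 25, while 7916 of all genes tested were positive and 5314 negative. The 95% interval of the fold change lay within 1.3-fold in either direction for 38 of the 40 members. This held for 45.1% of all genes tested, and for 70.7% of the 3611 genes whose mean reached 20 FPKM. The exceptions were Psmd9, with an interval of -0.43 to 0.01 on the log2 scale, and Psmc3ip, with -0.34 to 0.61. The median standard error (SE) was 0.0625 for the members and 0.109 for all genes tested.

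**Figure D1:**
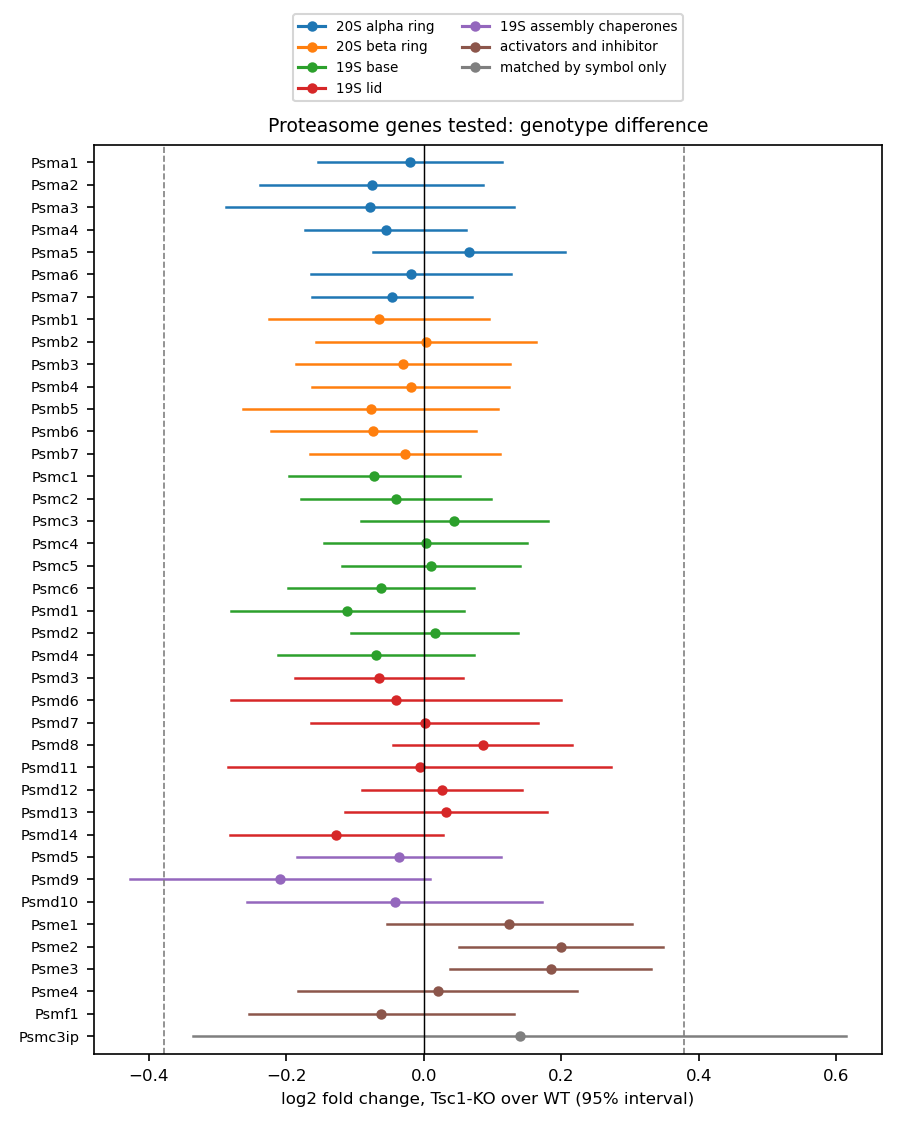
Log2 fold change of Tsc1-KO over WT (horizontal axis, points) with its 95% interval in limma (lines) for the 40 proteasome genes tested, coloured by sub-complex, with dashed lines at 1.3-fold in either direction. The intervals of Psmd9 and Psmc3ip reach past a dashed line, while those of Psme2 and Psme3 lie above 0 and within the dashed lines.

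All members of the core and cap were expressed far above the limit of the test. The 31 constitutive 26S subunits had mean levels from 39.1 FPKM (Psmd14) to 170 FPKM (Psmb4), a range of 4.35-fold on a scale that corrects for transcript length, with a median of 75.5 FPKM beside 8.37 FPKM over all genes tested. They were covered by 1122 to 5791 reads per gene and library. Psmb4, Psmb7 and Psma4 were the top genes in each of the 6 libraries, with Psmb4 first in 4 of them and Psmb7 first in the other two, so that the order of this pair was not fixed. Psmd14, Psmd11, Psmd1 and Psma5 filled the lowest 3 places in every library. The beta ring had a median level of 121 FPKM, the alpha ring 90.5 FPKM, the base 69.4 FPKM and the lid 53.9 FPKM.

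**Figure D2:**
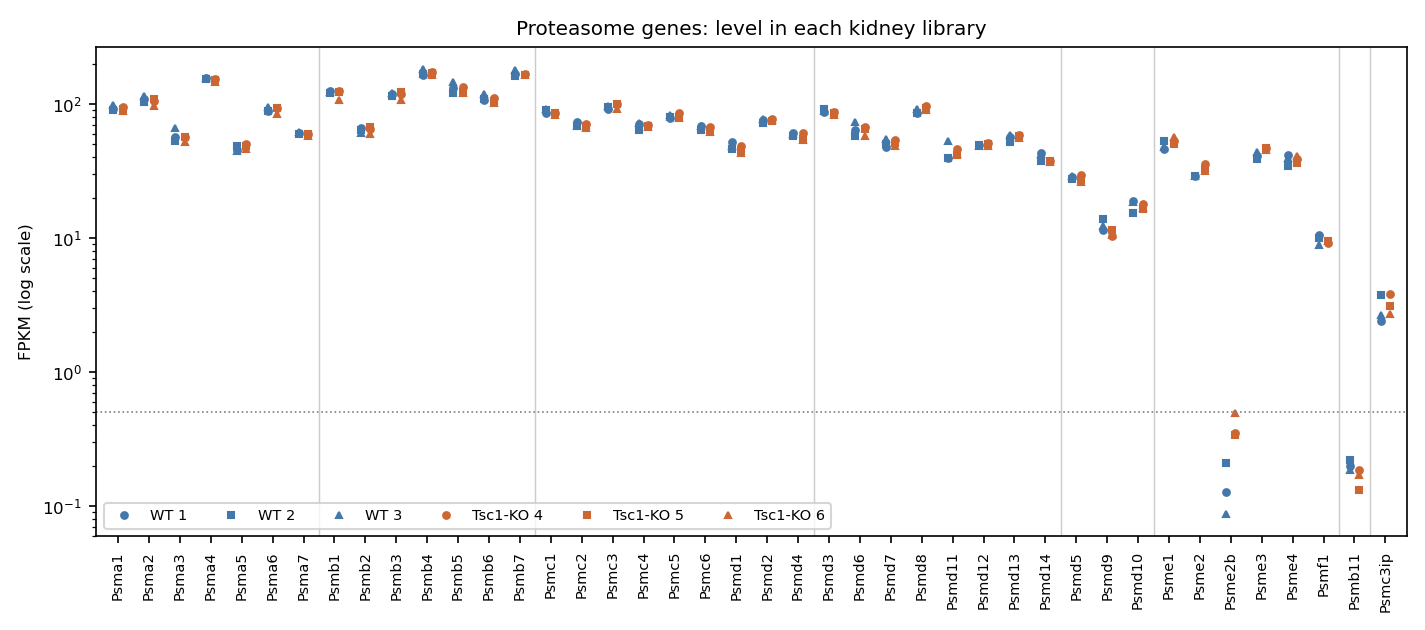
FPKM on a log scale (vertical axis) of the 42 proteasome genes in each library, WT in blue and Tsc1-KO in orange, with grey lines between the alpha ring, beta ring, base, lid, cap chaperones, activators and inhibitor, Psmb11 and Psmc3ip, and a dotted line at the 0.5 FPKM needed for the test. The core and cap genes lie between 36.7 and 182 FPKM in every library, and Psme2b and Psmb11 lie below the dotted line.

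The constitutive 26S subunits had 0 members called by limma, 0 at an unadjusted p under 0.05, and 31 of 31 intervals within 1.3-fold. Their log2 fold changes had a median of -0.03 and ran from -0.13 (Psmd14) to 0.09 (Psmd8), and 21 were negative. Their summed level was 2621, 2565 and 2744 FPKM in the WT libraries, against 2674, 2608 and 2479 FPKM with Tsc1-KO. The groups overlapped, and the mean of the Tsc1-KO libraries differed from that of the WT libraries by -2.13%. The summed level differed by -2.75% in the alpha ring, -2.90% in the beta ring, -1.71% in the base and -0.505% in the lid, each with overlapping groups. After median-of-ratios scaling of the libraries, the log2 ratio of the sum over the constitutive subunits went from -0.031 to -0.079, that of the alpha ring from -0.040 to -0.088, that of the beta ring from -0.042 to -0.090, that of the base from -0.025 to -0.072 and that of the lid from -0.0073 to -0.055.

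The levels also varied between libraries of the same genotype. WT replicate 3 held the highest level of the 6 libraries for 14 of the 31 constitutive subunits, and Tsc1-KO replicate 6 the lowest for 19 of them and the highest for 0. Relative to its own mean over the 6 libraries, the median subunit was at 0.05 on the log2 scale in WT replicate 3 and at -0.08 in Tsc1-KO replicate 6. The remaining libraries lay between -0.02 and 0.04. Tsc1-KO replicate 6 was also the lowest library in the summed level of the proximal tubule markers, and WT replicate 3 the highest, and the part of these cells in the subunit levels was not tested. The coefficient of variation over the 6 libraries had a median of 4.35%, from 2.12% for Psmd12 to 11.3% for Psmd11, beside 10.9% for all genes tested and 7.26% for genes whose mean reached 20 FPKM. Without WT replicate 3, limma called 0 members and their median log2 fold change was 0.01. Without Tsc1-KO replicate 6 it also called 0 members, but then called 0 of all genes tested as well.

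**Figure D3:**
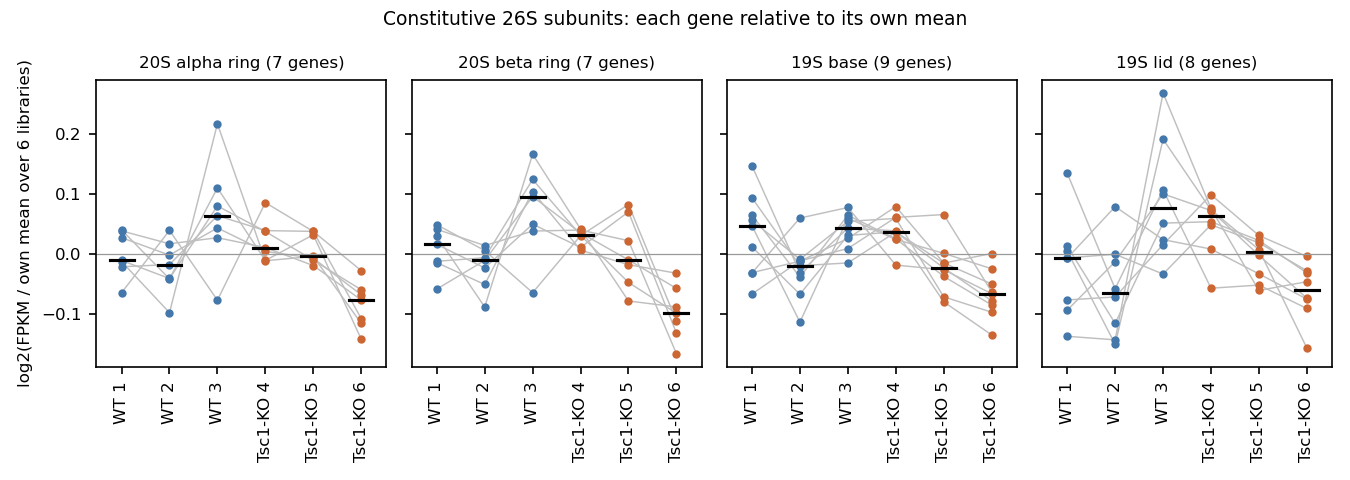
Log2 of each constitutive 26S subunit's FPKM over its own mean across the 6 libraries (vertical axis), in 1 panel per sub-complex, with points for genes, grey lines joining the values of a gene and black bars at the median of the panel's genes. The points of WT replicate 3 lie mostly above 0 and those of Tsc1-KO replicate 6 below 0, while the other libraries of both genotypes lie around 0.

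In the alpha ring, whose subunits open and close the entry to the barrel, 6 of 7 log2 fold changes were negative, with a median of -0.05. Psma4, whose product belongs to the gate, measured 157, 155 and 156 FPKM in the WT libraries, against 154, 151 and 145 FPKM with Tsc1-KO. All Tsc1-KO libraries lay below the WT libraries, which held for 1 of 40 members and for 8.07% of all genes tested. The log2 fold change came to -0.06 (SE 0.049, limma adjusted p 0.595), so the difference did not pass the test. Psma5 had the only positive value of this ring, with 45.3, 48.6 and 44.9 FPKM in WT and 50.2, 48.6 and 46.4 FPKM with Tsc1-KO, which overlapped (log2 fold change 0.07, SE 0.059, limma adjusted p 0.599). Psma2 measured 109, 103 and 114 FPKM in the WT libraries, against 105, 108 and 95.9 FPKM with Tsc1-KO, again with overlap and with Tsc1-KO replicate 6 as the lowest. Psma1, Psma3, Psma6 and Psma7 had log2 fold changes of -0.02, -0.08, -0.02 and -0.05, respectively.

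In the beta ring, the 3 genes of the proteolytic subunits were measured at high levels in both genotypes. Psmb5, which carries the chymotrypsin-like site that bortezomib blocks, measured 132, 122 and 145 FPKM in the WT libraries, against 133, 122 and 122 FPKM with Tsc1-KO. The log2 fold change came to -0.08 (SE 0.078, limma adjusted p 0.648). WT replicate 3 was the highest, and the other 5 libraries lay between 122 and 133 FPKM. Psmb6, which carries the caspase-like site, measured 108, 108 and 119 FPKM in the WT libraries, against 111, 105 and 102 FPKM with Tsc1-KO (log2 fold change -0.07, SE 0.063, limma adjusted p 0.581). Psmb7, which carries the trypsin-like site, measured 166, 162 and 181 FPKM in the WT libraries, against 169, 166 and 164 FPKM with Tsc1-KO (log2 fold change -0.03, SE 0.058, limma adjusted p 0.838). WT replicate 3 was the highest library for each of the 3 genes, and the groups overlapped. Without it, the log2 fold change of Psmb7 was 0.02, which turns its sign.

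Of the structural beta subunits, 0 passed the test. Psmb1 measured 124, 122 and 124 FPKM in the WT libraries, against 124, 122 and 108 FPKM with Tsc1-KO, where Tsc1-KO replicate 6 was apart from 5 nearly equal values. Psmb2, Psmb3 and Psmb4 had log2 fold changes of 0.00, -0.03 and -0.02. Psmb11, which replaces Psmb5 in thymus epithelium, was at 0.132 to 0.220 FPKM in the 6 libraries, from 11 to 21 reads each, and was too low to test.

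The promoters of Psmb5 and Psmb6 are printed here because both held a match to the antioxidant response element that NRF1 and its small Maf partners bind. The sequences are the sense strand of 300 bases around the annotated start (250 before it and 50 from it on) from RefSeq on the mouse build GRCm38.p6, at chr14:54617946-54618245 (minus strand) for Psmb5 and chr11:70525107-70525406 (plus strand) for Psmb6. The capitals mark the match to TGACNNNGC or its reverse complement GCNNNGTCA, searched on both strands. The match began at base -47 in Psmb5 and at -9 in Psmb6, counted from the start at 1 with no base 0.
Psmb5: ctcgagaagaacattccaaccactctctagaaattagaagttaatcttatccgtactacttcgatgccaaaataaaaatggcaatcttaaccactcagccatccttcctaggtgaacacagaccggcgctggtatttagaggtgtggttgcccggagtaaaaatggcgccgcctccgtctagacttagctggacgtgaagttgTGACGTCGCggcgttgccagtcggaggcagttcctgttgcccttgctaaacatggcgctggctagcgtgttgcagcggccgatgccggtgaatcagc
Psmb6: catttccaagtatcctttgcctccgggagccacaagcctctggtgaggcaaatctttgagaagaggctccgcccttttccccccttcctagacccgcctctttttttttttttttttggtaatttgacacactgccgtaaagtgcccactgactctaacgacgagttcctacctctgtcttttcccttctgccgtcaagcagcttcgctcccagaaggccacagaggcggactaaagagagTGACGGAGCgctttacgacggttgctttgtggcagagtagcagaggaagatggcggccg
The build behind the kidney data is not given in the sources used here, and the windows were joined to the genes by gene identifier. Of the 42 members, 36 had a window, in 39 windows. Psmb1, Psmb2, Psmb7, Psmc3, Psmd3 and Psmd7, all constitutive subunits, had none and were not searched. The windows of the constitutive subunits thus covered 25 of the 31 genes. The element matched in 4 of 27 windows of the constitutive subunits (14.8%), those of Psmb5, Psmb6, Psmc6 and Psmd12, beside 12.4% of 32851 windows of all genes. CCAAT or its reverse complement ATTGG, the element of NF-Y, matched in 10 of 27 windows (37.0%), beside 37.4% of all windows, and the marked matches overlapped no other motif searched. These are matches of letters, and binding was not measured. The 4 genes with a match had log2 fold changes of -0.08, -0.07, -0.06 and 0.03. Outside the constitutive subunits the element also matched in the windows of Psme4 and of the chaperone Psmd9, at base -31, and Psmd9 had a log2 fold change of -0.21.

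In the base of the cap, 5 of 9 log2 fold changes were negative, with a median of -0.04. Psmd1, the largest scaffold of the base, measured 52.0, 46.0 and 48.4 FPKM in the WT libraries, against 48.3, 44.5 and 42.8 FPKM with Tsc1-KO. Its groups overlapped, and its log2 fold change of -0.11 had an SE of 0.071 (limma adjusted p 0.450). Psmc1, an ATPase of the unfolding ring, measured 85.4, 91.0 and 92.1 FPKM in the WT libraries, against 86.2, 85.7 and 83.4 FPKM with Tsc1-KO (log2 fold change -0.07, SE 0.053, limma adjusted p 0.509). Psmd4, a receptor for ubiquitin chains, measured 60.3, 57.7 and 60.3 FPKM in the WT libraries, against 60.5, 55.2 and 54.3 FPKM with Tsc1-KO (log2 fold change -0.07, SE 0.060, limma adjusted p 0.583). For each of the 3 genes the lowest library was Tsc1-KO replicate 6, and at least 1 WT library lay within the range of the Tsc1-KO libraries or below it. The other ATPases, Psmc2 to Psmc6, had log2 fold changes between -0.06 (Psmc6) and 0.04 (Psmc3), and Psmd2, which docks the ubiquitin shuttle proteins, had 0.02.

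In the lid, 4 log2 fold changes were positive and 4 negative, with a median of -0.0027. Psmd14, the deubiquitinase that cuts the ubiquitin chain from the substrate, measured 42.9, 37.5 and 42.1 FPKM in the WT libraries, against 37.6, 37.7 and 36.7 FPKM with Tsc1-KO. The Tsc1-KO libraries lay close together, and WT replicate 2 lay within their range. The log2 fold change of -0.13 had an SE of 0.065 (limma adjusted p 0.346). Psmd8 had the most positive value of the lid, with 86.1, 86.4 and 91.7 FPKM in WT and 97.1, 92.7 and 90.5 FPKM with Tsc1-KO, and the groups overlapped (log2 fold change 0.09, SE 0.055, limma adjusted p 0.450). Psmd3, a scaffold of the lid, measured 86.8, 92.1 and 88.7 FPKM in the WT libraries, against 87.7, 85.3 and 82.8 FPKM with Tsc1-KO. Its log2 fold change of -0.07 had an SE of 0.052 (limma adjusted p 0.549). Psmd11 and Psmd6 had the widest spread among the core and cap genes, and both were highest in WT replicate 3 (52.7 and 73.4 FPKM against 39.7 to 46.1 and 57.7 to 67.6 FPKM in the other libraries), and their log2 fold changes were -0.01 and -0.04. Psmd7, the partner of Psmd14, had 0.00, Psmd12 had 0.03 and Psmd13 had 0.03.

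The 3 chaperones that assemble the base and leave the finished particle differed by -5.09% in mean summed level, with overlapping groups and 0 called. Psmd9 measured 11.5, 14.0 and 12.2 FPKM in the WT libraries, against 10.4, 11.6 and 10.5 FPKM with Tsc1-KO. WT replicate 1 lay just below Tsc1-KO replicate 5, and the log2 fold change of -0.21 (SE 0.092, limma adjusted p 0.280) was the most negative of the members. Psmd5 measured 28.8, 27.4 and 28.8 FPKM in the WT libraries, against 29.5, 27.2 and 26.4 FPKM with Tsc1-KO (log2 fold change -0.04, SE 0.063, limma adjusted p 0.802). Psmd10, also known as gankyrin, measured 18.8, 15.5 and 18.6 FPKM in the WT libraries, against 18.0, 16.5 and 16.7 FPKM with Tsc1-KO (log2 fold change -0.04, SE 0.091, limma adjusted p 0.838), and its log2 fold change was 0.0051 without WT replicate 1, which turns its sign.

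The activators that cap the 20S core in place of the 19S cap held the members with the smallest p. Psme2, which forms the interferon-inducible PA28 ring together with Psme1, measured 29.0, 29.2 and 29.0 FPKM in the WT libraries, against 35.9, 32.8 and 31.6 FPKM with Tsc1-KO. The WT libraries were nearly equal and all Tsc1-KO libraries lay above them. The log2 fold change came to 0.20 (SE 0.063, 95% interval 0.05 to 0.35), and with an adjusted p of 0.158 in limma it did not pass. Psme3, which forms the nuclear PA28 ring, measured 40.7, 38.8 and 43.8 FPKM in the WT libraries, against 47.3, 47.3 and 45.3 FPKM with Tsc1-KO, again without overlap. Its log2 fold change came to 0.18 (SE 0.062, 95% interval 0.04 to 0.33, limma adjusted p 0.177). Under the 13 alternatives its limma adjusted p ran from 0.0507, without WT replicate 3, to 0.398, without WT replicate 1. The fit without WT replicate 3 also called 709 of all genes higher, against 248 with all 6 libraries. Psme2 and Psme3 were the 2 of 40 members whose Tsc1-KO libraries all lay above the WT libraries, which held for 17.3% of all genes tested.

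Psme1, the partner of Psme2, measured 46.1, 53.1 and 47.6 FPKM in the WT libraries, against 53.1, 50.3 and 56.6 FPKM with Tsc1-KO, where WT replicate 2 lay within the range of the Tsc1-KO libraries (log2 fold change 0.12, SE 0.075, limma adjusted p 0.422). Psme2 was at 55.0% to 63.0% of the level of Psme1 in WT libraries and at 55.9% to 67.6% in Tsc1-KO libraries, with overlap. Psme4, which forms the PA200 cap, and Psmf1, the inhibitor PI31, had log2 fold changes of 0.02 and -0.06. The level summed over these 6 genes was 168, 166 and 169 FPKM in WT and 185, 177 and 185 FPKM in Tsc1-KO libraries, higher by 8.70% in mean and without overlap. Psme2b, a copy gene of Psme2, was below the 0.5 FPKM needed for the test, with 3, 5 and 2 reads in WT and 8, 7 and 13 reads in Tsc1-KO libraries. In a fit of all listed genes its adjusted p was 0.0865 in limma, and reads that both copies share could not be assigned from the sources used here.

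Promoters of the activators are shown because Psme1 held a match to an element of the interferon-stimulated kind and Psme4 one to the antioxidant response element. The windows are the RefSeq ones on GRCm38.p6, at chr14:55578244-55578543 (plus strand) for Psme1 and chr11:30771525-30771824 (plus strand) for Psme4. The capitals mark GAAA, any 2 bases and GAAA, or the reverse complement (TTTC, any 2 bases and TTTC), in Psme1, at base 10, and TGACNNNGC or GCNNNGTCA in Psme4, at base -7.
Psme1: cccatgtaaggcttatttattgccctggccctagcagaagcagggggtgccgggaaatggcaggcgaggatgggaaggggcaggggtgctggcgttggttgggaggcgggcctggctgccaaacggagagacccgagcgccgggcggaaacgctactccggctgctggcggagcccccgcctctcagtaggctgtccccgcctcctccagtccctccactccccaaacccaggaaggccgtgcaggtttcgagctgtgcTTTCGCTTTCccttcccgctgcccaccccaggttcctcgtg
Psme4: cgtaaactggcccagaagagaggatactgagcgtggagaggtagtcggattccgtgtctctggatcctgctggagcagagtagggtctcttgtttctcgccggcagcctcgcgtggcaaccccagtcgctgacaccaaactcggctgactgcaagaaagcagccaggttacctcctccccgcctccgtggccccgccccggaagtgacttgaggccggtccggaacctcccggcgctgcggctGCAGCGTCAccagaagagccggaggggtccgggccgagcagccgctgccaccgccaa
The interferon-type element matched in 3.44% of the windows of all genes and in 2 of 27 windows of the constitutive subunits (7.41%), those of Psmb3 and Psmd4, and also in that of Psmd9, at base -159. It matched in none of the windows of Psme2 and Psme3, which had the smallest p, and that says only that these letters are not in those windows.

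The immunoproteasome subunits, which take the places of the proteolytic subunits in immune cells and under interferon, were kept apart by the rule and are given for comparison. Psmb8, which replaces Psmb5, measured 5.23, 6.26 and 4.39 FPKM in the WT libraries, against 7.30, 6.47 and 8.79 FPKM with Tsc1-KO. The groups did not overlap, but the log2 fold change of 0.50 (SE 0.161, limma adjusted p 0.164) did not pass the test. Relative to Psmb5, Psmb8 was at 3.96%, 5.15% and 3.03% in WT and at 5.49%, 5.29% and 7.23% in Tsc1-KO libraries. In both groups the immune subunit was measured at a small share of the level of its constitutive counterpart. Psmb10, which replaces Psmb7, measured 8.17, 8.98 and 7.69 FPKM in the WT libraries, against 9.98, 8.69 and 12.4 FPKM with Tsc1-KO (log2 fold change 0.31, SE 0.137, limma adjusted p 0.286). Psmb9, which replaces Psmb6, measured 4.05, 4.86 and 3.04 FPKM in the WT libraries, against 3.77, 4.37 and 5.59 FPKM with Tsc1-KO (log2 fold change 0.20, SE 0.206, limma adjusted p 0.651). Both overlapped between the groups, and for all 3 genes Tsc1-KO replicate 6 was the highest library and WT replicate 3 the lowest.

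Markers of macrophages and other leukocytes followed the same order at the ends. Of the 9 markers listed, 7 were tested and limma called 0. Their summed level was 47.5 to 55.4 FPKM in WT and 49.5 to 75.8 FPKM in Tsc1-KO libraries, highest in Tsc1-KO replicate 6 and lowest in WT replicate 3. This order was not particular to leukocytes. The summed level of 4 podocyte markers was also lowest in WT replicate 3 (54.1 FPKM) and highest in Tsc1-KO replicate 6 (94.1 FPKM). The remaining lists of cell markers did not share both ends. Cd8a, a marker of a subset of T cells, and Cd79a, a marker of B cells, were below 0.5 FPKM. The T cell marker Cd3e was not analysed here. The part of leukocytes in the levels of Psmb8, Psmb9 and Psmb10 was not tested.

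**Figure D4:**
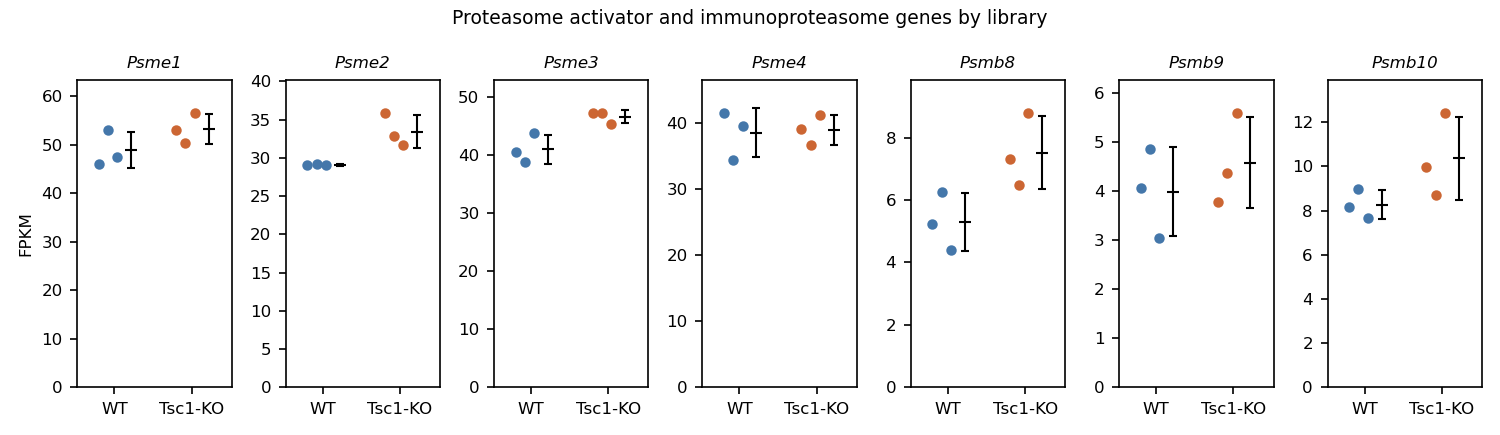
FPKM (vertical axes from 0) of the activator genes Psme1 to Psme4 and the immunoproteasome genes Psmb8, Psmb9 and Psmb10 in each WT (blue) and Tsc1-KO (orange) library, with the mean and SD (n = 3) as black bars. All Tsc1-KO points lie above all WT points for Psme2, Psme3 and Psmb8, and the points overlap for the others.

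Other genes of the ubiquitin-proteasome pathway included 1 that passed, Nfe2l1. Of 46 such genes listed, 45 were tested, and limma called 1 higher and 0 lower, beside the 1.87% of all genes called higher. At an unadjusted p under 0.05 there were 8 of the 45, a share no higher than the 19.2% of all genes tested. Their median log2 fold change was 0.06, with 32 positive and 13 negative. Nfe2l1, which encodes NRF1, measured 40.6, 44.6 and 45.8 FPKM in the WT libraries, against 55.6, 58.0 and 60.5 FPKM with Tsc1-KO. All Tsc1-KO libraries lay well above the WT libraries, and the group mean rose from 43.7 ± 2.71 to 58.0 ± 2.44 FPKM (SD, n = 3 each). The log2 fold change of 0.41 had an SE of 0.066 and an adjusted p of 0.0325 in limma. The log2 fold change stayed between 0.36 and 0.45 under 13 alternatives, of which 6 kept the call. The call was lost after median-of-ratios scaling of the libraries (limma adjusted p 0.0518), in a fit with no variance trend (0.0677), and when any library other than WT replicate 3 was left out (0.0680 to 0.152). These fits with a library left out also called fewer of all genes higher, 0 to 170 against 248 with all 6 libraries. In the same libraries the genes known as NRF1 targets, the constitutive 26S subunits, had 0 of 31 called, beside 2.11% of all genes tested. Whether NRF1 acted on these genes was not tested.

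The genes that process NRF1 protein and pair with it did not pass the test. Syvn1, the ubiquitin ligase that draws NRF1 out of the endoplasmic reticulum, measured 13.2, 13.1 and 21.5 FPKM in the WT libraries, against 28.5, 28.2 and 19.9 FPKM with Tsc1-KO. WT replicate 3 lay above Tsc1-KO replicate 6, and the log2 fold change of 0.70 (SE 0.226) had an adjusted p of 0.165 in limma. Without WT replicate 3, limma called 4 genes of the pathway higher, namely Nfe2l1, Syvn1 with a log2 fold change of 0.93 (adjusted p = 0.0255), the protease Ddi2 that cleaves NRF1 with 0.47 (0.0367) and Akirin2, a carrier of proteasomes into the nucleus, with 0.30 (0.0327). The same fit called 709 of all genes tested higher (5.36%) and 400 lower (3.02%), so that calls became more frequent over all genes too. With all 6 libraries Ddi2 and Akirin2 had log2 fold changes of 0.32 and 0.15. Vcp, the ATPase that extracts NRF1 from the membrane, was at 165 FPKM in mean in WT and at 164 FPKM in Tsc1-KO libraries, and Ngly1, which removes its sugars, had a log2 fold change of -0.11. Nfe2l2 (encoding NRF2) and Mafk, a small Maf partner, had 0.23 and 0.32, each with all Tsc1-KO libraries above the WT libraries and neither past the test. Of the 11 genes tested of the NRF1 pathway, 3 had all Tsc1-KO libraries above the WT libraries and 1 had all below. Of all 45 pathway genes tested, 9 lay above and 1 below in this way, beside 17.3% and 8.07% of all genes tested.

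The other helpers of the proteasome did not pass the test either. Pomp and Psmg1 to Psmg4, the chaperones of the 20S core, had log2 fold changes between -0.13 (Psmg2) and 0.06 (Psmg4). Psmg2 measured 17.9, 18.1 and 18.1 FPKM in the WT libraries, against 16.9, 18.0 and 14.7 FPKM with Tsc1-KO, with limma adjusted p 0.462. Adrm1, a ubiquitin receptor of the cap, had -0.05, and Shfm1, a small subunit of the lid, had 0.09. The deubiquitinases Usp14 and Uchl5, which bind the cap, had 0.01 and 0.00. Zfand2a, a factor that binds the cap under proteotoxic stress, measured 4.94, 5.38 and 5.81 FPKM in the WT libraries, against 7.43, 6.77 and 6.05 FPKM with Tsc1-KO, without overlap, but with limma adjusted p 0.176 for a log2 fold change of 0.32. Ubqln4 and Uba1, a ubiquitin shuttle and the main ubiquitin-activating enzyme, had 0.17 and 0.12 without overlap and did not pass. Tapbp and B2m, which act on the peptides that proteasomes supply to MHC class I, had 0.26 and 0.24 and did not pass either.

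**Figure D5:**
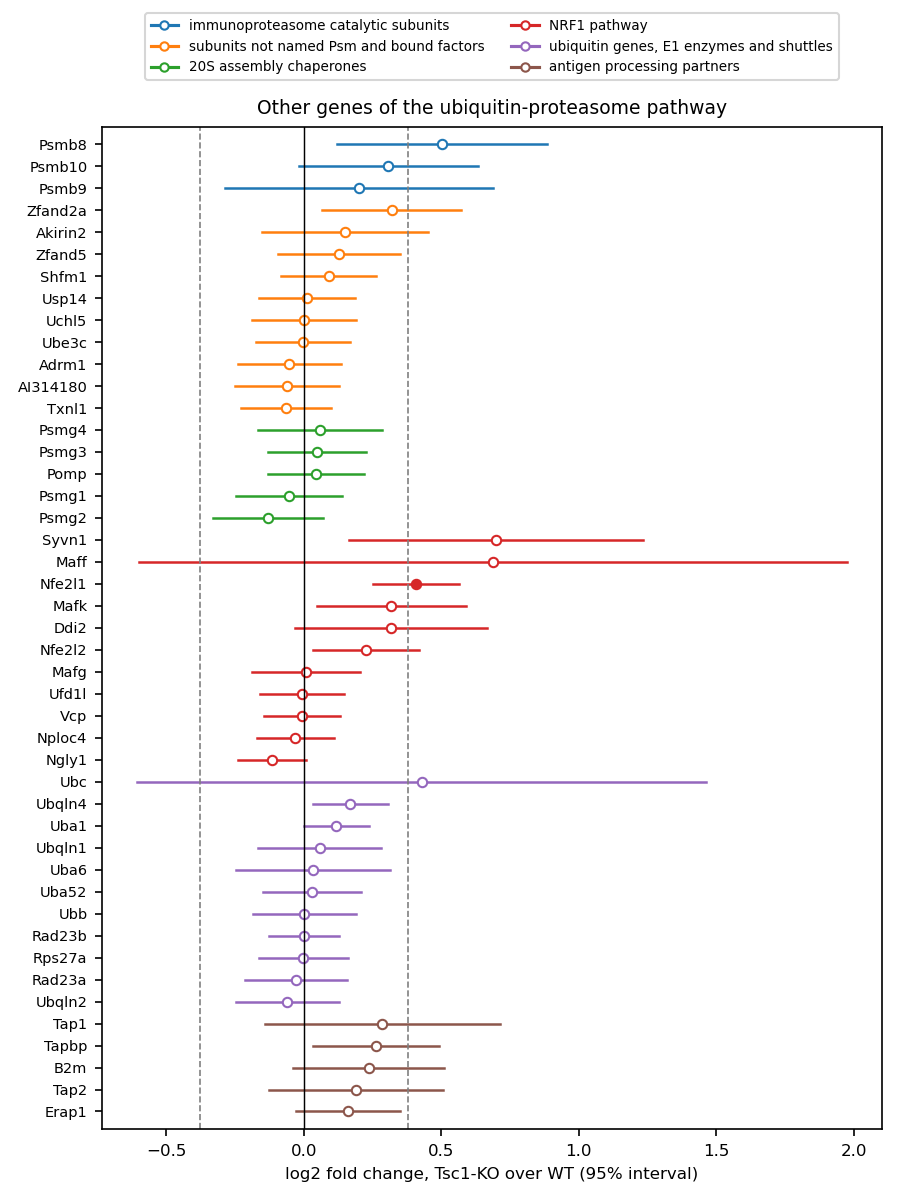
Log2 fold change of Tsc1-KO over WT (horizontal axis, points) with its 95% interval in limma (lines) for the 45 other genes of the ubiquitin-proteasome pathway tested, coloured by list, filled where the adjusted p was under 0.05, with dashed lines at 1.3-fold in either direction. The filled point is Nfe2l1, at 0.41.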

How the data were processed

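Total kidney RNA of 3 WT and 3 Tsc1-KO mice was sequenced on an Illumina HiSeq instrument after poly A selection. The authors aligned clean reads to a mouse genome, whose build is not given in the sources used here, with HISAT2 2.0.4 and obtained gene levels with HTSeq 0.9.1. How they treated reads shared with copies was not stated, and RefSeq annotates pseudogene copies of Psma5, Psmb5, Psmb6 and Psmb7. The deposited library columns hold FPKM, 1 column per library. The deposited base mean columns hold a signal, the mean normalised count. Columns of the authors' comparison, a fold change (ratio) and its log2 as deposited, and the p-value and adjusted p-value as deposited, were not used.

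Log2(FPKM + 0.1) was fitted with limma 3.58.1 in R 4.3.3 with genotype as the only term, empirical Bayes moderation and a trend of the variance on the level. Tests were 2-sided and adjusted by Benjamini-Hochberg over the 13230 genes whose mean reached 0.5 FPKM. Fold changes on this scale slightly understate those of low genes. Whole reads were recovered from FPKM and mean normalised counts, and 100% of the 90069 values no larger than 10000 came out whole at a tolerance of 0.02. They served for depth and for limma-voom. The fits were also run on simulated counts, with the same extra spread for every gene and no library set apart, unlike these data. The outcome is not given here, and no result rests on it. Each library is taken as 1 mouse, as the labels number them. The p-values set the genotype difference against the spread between these libraries, moderated toward the trend over all genes. Tables used pandas 2.3.3 and numpy 2.4.6 under Python 3.11.15, and plots used matplotlib 3.10.9.

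The members, the gene lists and the tests were chosen with earlier results of these data known. Values in every library are given for up to 3 members with the smallest p in each sub-complex, for the proteolytic and immunoproteasome subunits, and for genes of other lists that passed or were among the 2 with the smallest p; further genes were named after their values were seen. Sem1, Ecpas and Ufd1 were read under the older symbols Shfm1, AI314180 and Ufd1l, and Paaf1 was not analysed here. Alternatives were 2 other pseudocounts, 2 other filters on low values, median-of-ratios scaling, no variance trend, limma-voom and leaving out each library.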

Additional observations from a re-analysis of the deposited data

How the results depend on the processing

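The counts of proteasome genes called higher or lower stayed at 0 under all 13 alternatives, of which the one without Tsc1-KO replicate 6 called 0 of all genes, and 36 to 38 of the intervals lay within 1.3-fold. Their median log2 fold change was -0.076 after median-of-ratios scaling, which moved the median of all genes from 0.04 to -0.01. The same scaling gave log2 ratios of the summed level of -0.072 for the base, -0.12 for the cap chaperones and 0.073 for the activators and inhibitor, against -0.025, -0.075 and 0.12, and moved the sums of both rings, of the lid and of all constitutive subunits down by a similar step, within the spread between replicates. Leaving out a library gave 0 to 709 higher and 0 to 400 lower genes over all genes, and 0 to 4 higher genes of the wider pathway. Over all genes, 159 were higher with a filter at a mean of 5 FPKM and 18 lower without the variance trend. The wider pathway had 0 higher after median-of-ratios scaling and without the variance trend. Of the single genes, Psmd10 ranged from -0.13 (without WT replicate 2) to 0.0051 (without WT replicate 1) and Psmb7 from -0.059 (without WT replicate 2) to 0.018 (without WT replicate 3) on the log2 scale when a library was left out. The causes were not tested. No paired analysis was possible because the groups share no replicate number. With 3 mice a group, the 95% intervals of the members limit what was detectable, and differences in protein or proteasome activity were not measured.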
